A study of Homo sapiens with 2 samples.

Results

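To examine LDB1 at the genes of the red cell membrane skeleton, the deposited LDB1 peaks were placed on 8 genes: SLC4A1, ANK1, SPTB, EPB41, EPB42, GYPC, RHAG and DMTN. A peak was assigned to a gene when it overlapped the GENCODE v44 gene body extended by 10 kb on each side, a rule that uses no measured value. The genes themselves were chosen with earlier results of these data known. Results showed that all 8 genes held at least 1 LDB1 peak, compared with 25.1% of protein-coding genes. Together they held 47 of the 11046 deposited peaks (0.425%). Each of the 8 had a peak lying over the transcription start site (TSS) of an annotated transcript, compared with 3.65% of protein-coding genes. The peaks came from CUT&Tag, where a transposase tethered by the antibody inserts adapters into DNA close to the protein. The cells were NB4, a human acute promyelocytic leukemia line. The library made with the LDB1 antibody is labelled as LDB1 overexpression and the one made with IgG as untreated. The effects of antibody and treatment therefore cannot be told apart. Each group was 1 library, so there were no replicates and no test was made. No peak list of the IgG library was used here, so no background from it stands beside the values. The list gives position and length of each peak without a height, and the depth behind it is unknown. Intervals are 95% intervals and cover counting error only.

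The red cell membrane rests on a mesh of spectrin tetramers that is tied to the lipid bilayer at ankyrin-based and junctional complexes. SLC4A1 encodes the anion exchanger, the main integral protein of the membrane, and RHAG encodes the Rh-associated glycoprotein, which carries the Rh complex. ANK1 encodes ankyrin, which links the anion exchanger to SPTB, the beta chain of spectrin, and EPB42 encodes a protein that stabilises that link. EPB41 encodes the junctional protein that joins spectrin to actin and to GYPC, glycophorin C, and DMTN encodes dematin, an actin-bundling protein of the junction. Defects of SLC4A1, ANK1, SPTB and EPB42 are known from hereditary spherocytosis and defects of EPB41 from hereditary elliptocytosis. LDB1 does not bind DNA itself. In erythroid cells it is known as part of a complex with LMO2, TAL1 and GATA1, which binds a composite element of an E-box remnant and a GATA site.

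The sequences below show the composite element in LDB1 peaks at 5 of the genes. The composite was searched on both strands as CTG, then 7 or 8 bases of any kind, then the GATA motif, which is AGATAA with T also allowed as its first base and G as its last. Each line gives the match with 10 flanking bases on each side, in hg38, 5′ to 3′ from CTG to GATA, with capitals for CTG and the GATA motif. They are shown because they let the spacing be read directly. The coordinates are those of the match without its flanks.
SLC4A1, chr17:44246143-44246158, plus strand: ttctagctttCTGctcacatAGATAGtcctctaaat
SLC4A1, chr17:44246168-44246183, minus strand: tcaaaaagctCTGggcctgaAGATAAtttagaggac
SLC4A1, chr17:44266708-44266724, plus strand: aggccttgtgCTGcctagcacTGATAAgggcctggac
SPTB, chr14:64845135-64845151, minus strand: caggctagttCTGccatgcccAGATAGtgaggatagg
SPTB, chr14:64879983-64879999, plus strand: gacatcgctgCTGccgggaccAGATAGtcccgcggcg
EPB42, chr15:43221074-43221089, minus strand: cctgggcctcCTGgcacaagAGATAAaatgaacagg
EPB42, chr15:43221383-43221399, plus strand: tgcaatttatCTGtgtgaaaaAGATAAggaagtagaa
GYPC, chr2:126674224-126674240, minus strand: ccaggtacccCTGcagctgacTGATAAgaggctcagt
GYPC, chr2:126676990-126677005, plus strand: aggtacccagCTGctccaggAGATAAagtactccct
RHAG, chr6:49636854-49636870, plus strand: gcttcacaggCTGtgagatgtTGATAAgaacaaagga
RHAG, chr6:49646437-49646453, plus strand: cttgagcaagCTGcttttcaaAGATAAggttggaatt

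The peak centres below are the 200 bp around the midpoint of the longest peak that held a composite there, for 4 of the genes. They are shown in hg38 on the strand given, with the GATA motif and the CTG of a composite in capitals (as their reverse complements where the match lies on the other strand). The SLC4A1 centre holds both composites listed first above, which face each other on opposite strands. The EPB42 centre lies just upstream of its TSS.
SLC4A1 peak centre, chr17:44246098-44246297, minus strand: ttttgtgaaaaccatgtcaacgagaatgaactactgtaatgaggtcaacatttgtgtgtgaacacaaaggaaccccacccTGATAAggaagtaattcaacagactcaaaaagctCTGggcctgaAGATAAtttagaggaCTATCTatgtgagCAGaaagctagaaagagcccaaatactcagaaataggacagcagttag
SPTB peak centre, chr14:64845077-64845276, minus strand: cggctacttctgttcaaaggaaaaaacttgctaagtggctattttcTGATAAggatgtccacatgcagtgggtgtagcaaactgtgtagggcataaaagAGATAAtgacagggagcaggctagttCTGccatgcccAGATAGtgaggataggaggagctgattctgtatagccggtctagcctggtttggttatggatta
EPB42 peak centre, chr15:43221046-43221245, minus strand: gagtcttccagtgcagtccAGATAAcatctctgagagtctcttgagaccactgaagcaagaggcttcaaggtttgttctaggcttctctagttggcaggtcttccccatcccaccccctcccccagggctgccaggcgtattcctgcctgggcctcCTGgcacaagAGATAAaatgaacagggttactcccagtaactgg
RHAG peak centre, chr6:49646325-49646524, minus strand: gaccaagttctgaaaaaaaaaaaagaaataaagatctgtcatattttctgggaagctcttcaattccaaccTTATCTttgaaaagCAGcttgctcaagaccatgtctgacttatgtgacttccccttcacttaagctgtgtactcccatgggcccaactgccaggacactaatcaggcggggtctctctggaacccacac

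The upstream windows below are, for 4 of the genes, the 200 bases before the TSS that lies under the peak, shown since the same positions recur in the results. They are given in hg38 on the strand of the gene, ending next to the TSS. Capitals mark the GATA motif, the CTG of a composite, and the KLF motif (CCNCACCC), on either strand. The TAL1 E-box, searched in the same way, is CAGATG or CAGCTG.
SPTB upstream window, chr14:64879908-64880107, minus strand: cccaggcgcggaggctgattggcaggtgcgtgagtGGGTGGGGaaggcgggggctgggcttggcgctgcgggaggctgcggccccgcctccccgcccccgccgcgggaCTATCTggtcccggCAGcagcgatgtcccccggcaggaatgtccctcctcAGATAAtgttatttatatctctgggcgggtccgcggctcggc
EPB41 upstream window, chr1:28886891-28887090, plus strand: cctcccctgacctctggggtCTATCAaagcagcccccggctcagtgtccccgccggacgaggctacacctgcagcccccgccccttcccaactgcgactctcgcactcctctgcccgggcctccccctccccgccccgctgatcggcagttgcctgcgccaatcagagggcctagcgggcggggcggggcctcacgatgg
GYPC upstream window, chr2:126655958-126656157, plus strand: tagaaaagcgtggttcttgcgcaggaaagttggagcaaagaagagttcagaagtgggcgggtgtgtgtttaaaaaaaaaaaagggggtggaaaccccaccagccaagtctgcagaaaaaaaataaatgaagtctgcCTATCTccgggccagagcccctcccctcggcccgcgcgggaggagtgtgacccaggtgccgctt
RHAG upstream window, chr6:49636840-49637039, minus strand: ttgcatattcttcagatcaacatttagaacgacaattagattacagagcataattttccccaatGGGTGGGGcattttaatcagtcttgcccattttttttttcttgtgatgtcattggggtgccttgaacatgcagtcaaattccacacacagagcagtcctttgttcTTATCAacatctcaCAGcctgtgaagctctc

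To place the peak counts among other genes, the same windows were drawn around all 20033 protein-coding genes. All 8 genes had a peak, with an exact lower bound of 63.1% on the share, compared with 25.1% of protein-coding genes. The 8 genes are no random sample and were chosen with earlier results of these data known. The bound is therefore a description and does not test a difference. At least 5 peaks were found at 6 of the 8 genes, compared with 1.94% of protein-coding genes. The median was 6 peaks at the 8 genes and 0 over protein-coding genes. The counts ranged from 2 at EPB42 and RHAG to 10 at SLC4A1. The exception to the high counts was therefore this pair, whose only peaks were one over the TSS and one between 9 and 10 kb upstream.

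Longer windows have more room for a peak, so each gene was also set beside protein-coding genes with windows of 0.8 to 1.25 times its length. SLC4A1 had 10 peaks in a window of 39752 bp, and 2 of 4606 genes of like length (0.0434%) had as many or more. GYPC had 9 peaks in 60535 bp, and 8 of 3632 such genes (0.22%) had as many or more. DMTN had 5 peaks in 53533 bp, matched or passed by 51 of 3903 genes (1.31%). These 3 genes stood at or above the 99th percentile in the plot of peaks against window length. SPTB had 6 peaks in 153625 bp (3.11% of genes of like length had as many or more). ANK1 had 7 peaks in 263522 bp (3.28%), and EPB41 had 6 in 252956 bp (4.78%). EPB42 and RHAG had 2 peaks each, and 9.94% and 10.6% of genes of like length had as many or more. The median gene of like length had 0 peaks in all 8 cases.

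**Figure D1:**
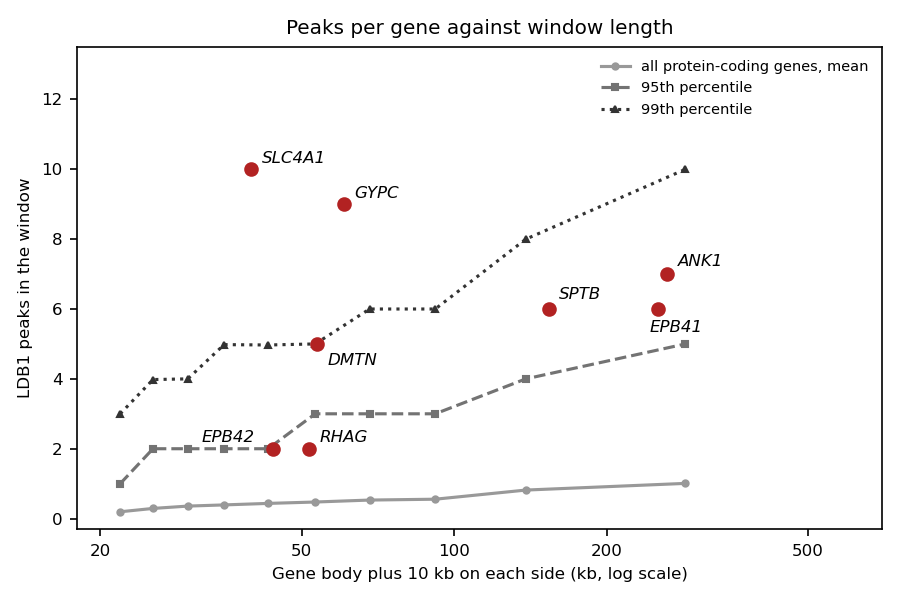
LDB1 peaks per gene (y axis) against the length of the gene body plus 10 kb on each side (x axis, kb, log scale), with red points for the 8 genes and grey and black lines for the mean, 95th and 99th percentile of all protein-coding genes in classes of window length. SLC4A1 with 10 peaks and GYPC with 9 lie above the 99th percentile line, which runs from 3 to 10 peaks, and EPB42 and RHAG with 2 peaks lie near or below the 95th.

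By length the 47 peaks covered 39502 bp and ranged from 243 to 4718 bp. Their median was 476 bp (interval 426 to 868), compared with 451 bp for all peaks, which lies inside that interval. The upper end differed more than the middle: 19 of the 47 (40.4%, exact interval 26.4 to 55.7) were longer than 666 bp, the upper quartile of all peaks. Of the 500 longest peaks of the library, which are 4.53% of all, 9 lay at 6 of the 8 genes (19.1% of the 47). EPB42 and RHAG had none of these. Of 39 neighbouring pairs within a window, 17 (43.6%) were under 1 kb apart, and over all peaks 12.5% of neighbouring pairs were. The pairs over all peaks also span stretches between genes, while a window limits the distance. These shares are therefore not like for like. Neighbouring peaks are not independent of each other, and merging those under 1 kb apart left 30.

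**Figure D2:**
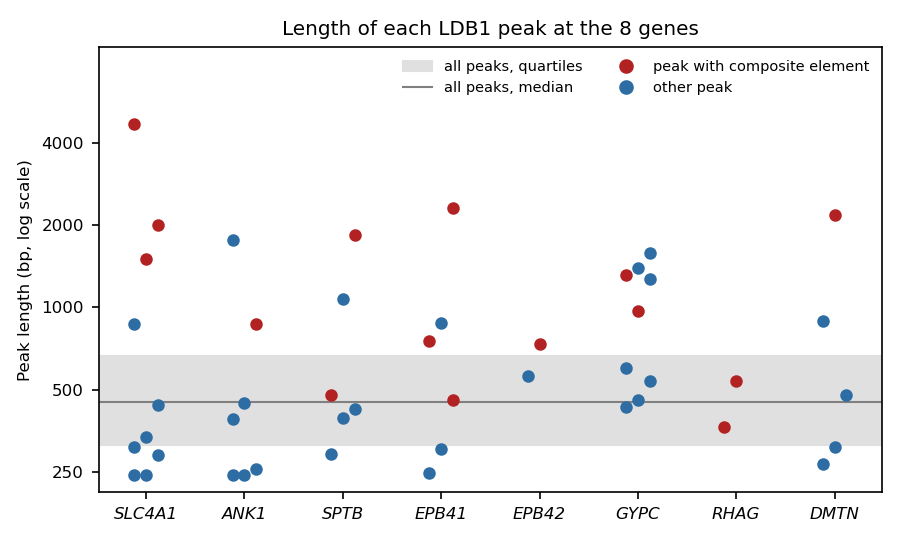
Length of each LDB1 peak at the 8 genes (bp, log scale), 1 point for each peak, by gene, in red where the peak holds a composite, over the median (line) and quartiles (grey band) of all peaks. The points run from 243 bp to the SLC4A1 peak of 4718 bp, and the peaks of EPB42 and RHAG all stay below 1000 bp.

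To ask how the peaks lie relative to start sites, TSS were examined in groups. Annotated TSS of the GENCODE basic set were grouped where they lay no more than 500 bp apart, which gave 18 groups at the 8 genes. Of these, 9 (50%) lay under a peak, compared with 1.73% of the 29307 groups of protein-coding genes. Counted by gene, with all annotated transcripts, all 8 had a peak over at least 1 TSS, compared with 3.65% of protein-coding genes. The canonical TSS was under a peak at 6 of the 8, the exceptions being EPB41 and DMTN. The 9 peaks over a TSS had a median length of 891 bp (365 to 4718 bp), and the other 38 had a median of 452 bp. The longest peak of the gene was the one over a TSS at 5 of the 8 genes, and not at EPB41, GYPC or RHAG. A longer peak has more room to cover a TSS, so these values do not tie length to start sites.

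Counted by midpoint, 24 of the 47 peaks (51.1%, exact interval 36.1 to 65.9) were no more than 3 kb from a TSS of any gene, compared with 35.6% of all peaks. A window of 1 kb gave 29.8%, compared with 19.4% of all peaks. The 47 peaks were taken for lying in or near a gene, while all peaks include those far from any gene. Neither pair of shares is therefore like for like. That the lower bound of 36.1% stands just above 35.6% does not show a preference for start sites. Among the 24 peaks, the TSS was one of the gene itself for 21. Of all 47, the nearest annotated TSS belonged to the gene itself for 35 and to another gene, often a noncoding one, for 12.

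**Figure D3:**
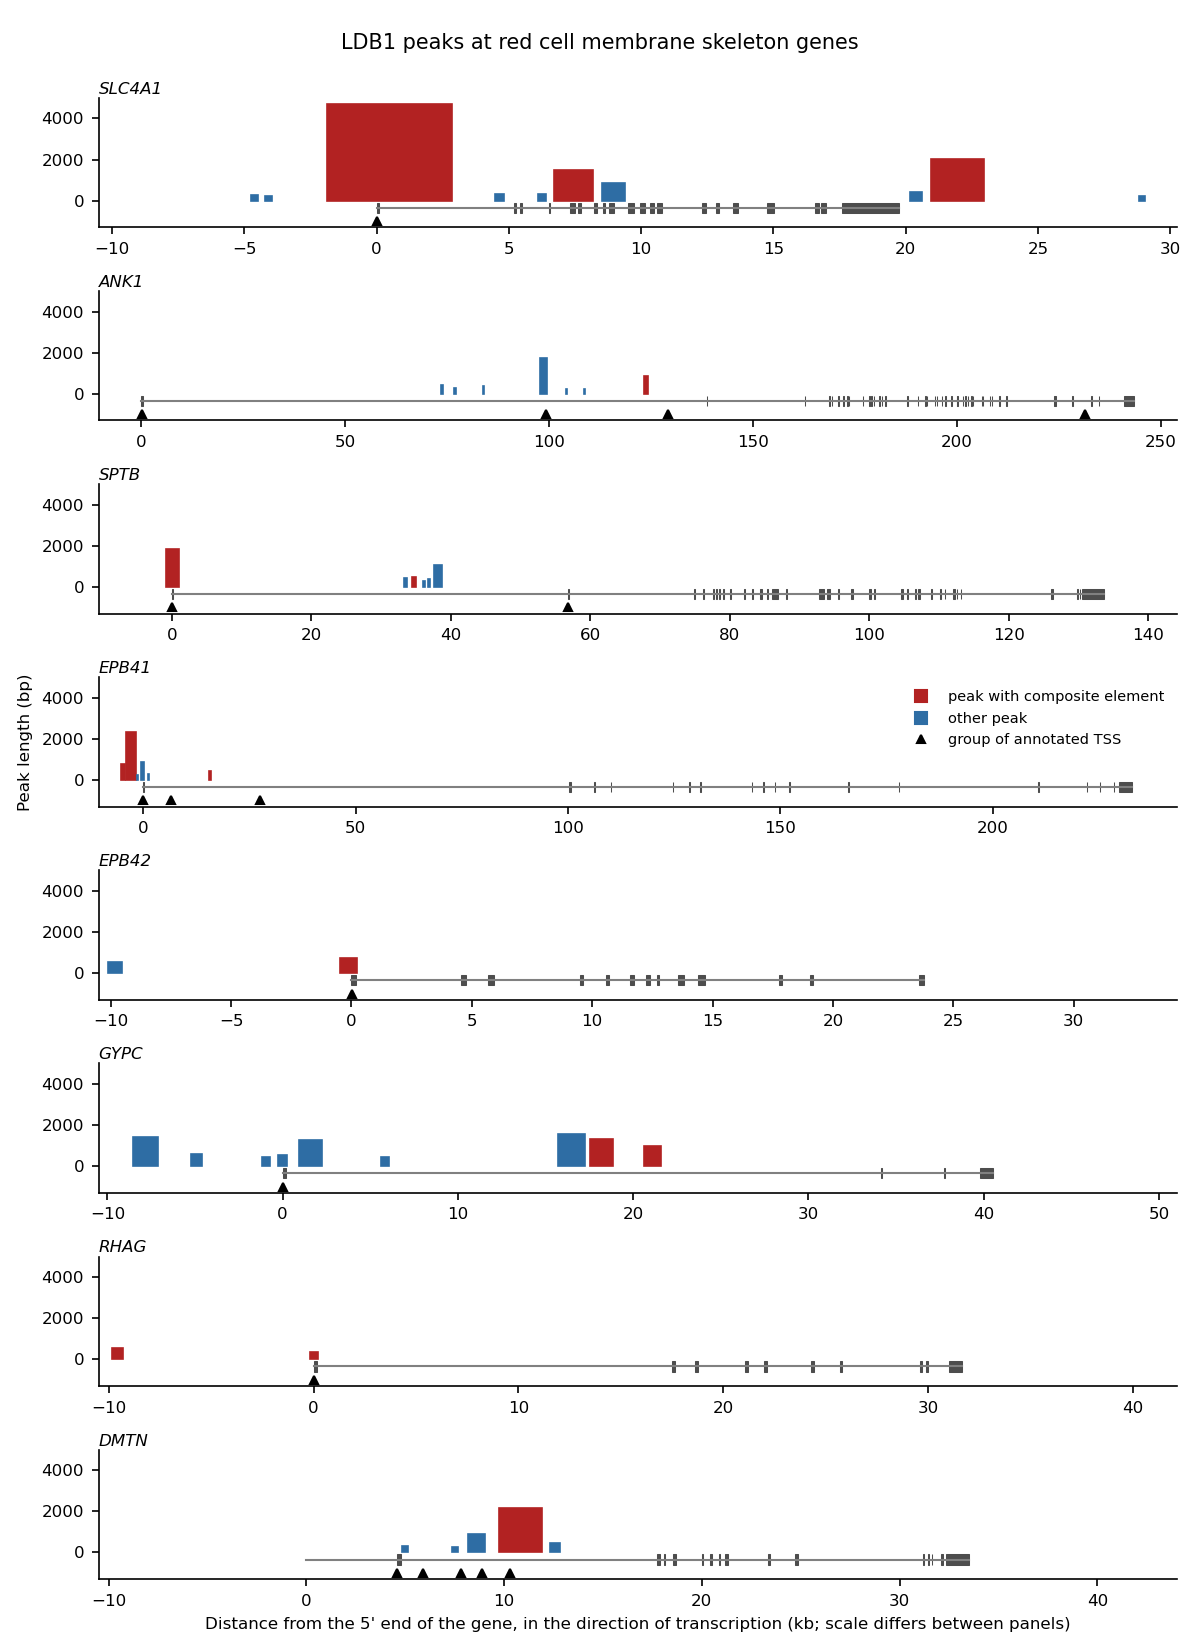
Position (x axis, kb from the 5′ end of the gene in the direction of transcription, scale differing between panels) and length (y axis, bp) of each LDB1 peak at the 8 genes, with exons of 1 transcript as dark boxes, groups of annotated TSS as triangles, and peaks holding a composite element anywhere in red. Each gene has a peak over a TSS and at least 1 red peak, and the SLC4A1 peak over its TSS is the longest at 4718 bp.

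SLC4A1 (ENSG00000004939.16, chr17:44248390-44268141, minus strand) had the most peak sequence of the 8 genes, 10958 bp or 27.6% of its window, and ranked 11 of 20033 protein-coding genes by the summed length of its peaks. The peak over its TSS, chr17:44265279-44269996, was 4718 bp long and the second longest of the library (rank 2). It reached 1861 bp upstream of the TSS and 2856 bp downstream into intron 1. Inside the gene, a peak of 1504 bp had its midpoint in coding exon 5, and a peak of 868 bp had its midpoint in coding exon 9. These were the only midpoints in coding exons at the 8 genes. Beyond the 3′ end, chr17:44245193-44247203 spanned 2011 bp and held 3 composites, of which 2 lay within 100 bp of its midpoint and are shown above. A further peak of 243 bp, the farthest downstream, had a central sequence of 31 bases that occurs 771 times in hg38, so its placement is uncertain.

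ANK1 (ENSG00000029534.22, chr8:41653220-41896741, minus strand) had its 7 peaks in 1 stretch of the gene, all with midpoints in intron 1 of the longest transcript. The longest, 1762 bp (rank 232 of all peaks), lay over the TSS of the canonical transcript ANK1-202 and overlapped the noncoding gene ENSG00000289514. The other TSS groups were not covered. The group at the 5′ end of the gene was 73345 bp from the nearest peak, the one at 41767477 was 5007 bp away, and the most downstream one was 107210 bp away. The single composite inside a peak of the gene lay near the midpoint of an 871 bp peak, chr8:41772484-41773354, 5371 bp upstream of the nearest annotated TSS, and the rest of the window held 15 more. The 5 remaining peaks were short, from 243 to 446 bp.

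SPTB (ENSG00000070182.21, chr14:64746283-64879907, minus strand) had 6 peaks in 2 places. One peak of 1847 bp (rank 204) lay over the TSS, reaching 887 bp upstream and 959 bp downstream, and held a composite 84 bp upstream of the TSS. It also overlapped the noncoding gene ENSG00000288779. The other 5 formed a cluster in intron 1 between chr14:64841213 and 64846611, and its longest peak was 1072 bp. The composite of that cluster lay in the 476 bp peak chr14:64844940-64845415, near its midpoint and 34764 bp from the 5′ end. A peak of 392 bp in the cluster had a central sequence with 248 copies in hg38. The second TSS group, at 64823148, was 18065 bp from the nearest peak.

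EPB41 (ENSG00000159023.23, chr1:28887091-29120046, plus strand) had its 6 peaks around its most upstream TSS. The peak over that TSS was 876 bp, and it was not the longest. The longest, chr1:28883043-28885356, was 2314 bp (rank 85) with its midpoint 2892 bp upstream, and it held 2 composites. A 755 bp peak farther upstream and a 459 bp peak 15651 bp inside intron 1 held 1 composite each. The canonical TSS group, from 28914544 to 28914626 with 11 transcripts, was 11573 bp from the nearest peak.

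GYPC (ENSG00000136732.16, chr2:126656133-126696667, plus strand) had 9 peaks covering 8560 bp, or 14.1% of its window. The peak over the TSS was 537 bp. The longest, chr2:126671824-126673411, was 1588 bp and lay 16484 bp inside the gene, in intron 1, next to peaks of 1312 bp and 969 bp at 18204 and 21107 bp. Each of the latter pair held a composite, and neither match lay within 100 bp of the midpoint. A peak of 1398 bp upstream of the gene had a central sequence with 39 copies in hg38.

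EPB42 (ENSG00000166947.15, chr15:43197227-43221018, minus strand) had a peak of 734 bp over its TSS, reaching 495 bp upstream, with composites centred 63 and 373 bp upstream of the TSS. Its other peak, of 560 bp, was centred 9813 bp upstream, spanned the edge of the window and lay nearest to the TSS of another gene. RHAG (ENSG00000112077.18, chr6:49605175-49636839, minus strand) had a 365 bp peak over its TSS with a composite centred 23 bp upstream. Its second peak, chr6:49646158-49646693, was 536 bp, centred 9586 bp upstream, and held 2 composites. EPB42 and RHAG thus had few peaks, from 365 to 734 bp, and 3 of these 4 held a composite.

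DMTN (ENSG00000158856.19, chr8:22048995-22082527, plus strand) had 5 peaks, which lay between 22053823 and 22061806. The most upstream of its 5 TSS groups lay 253 bp before that stretch and the others inside it. Of these groups, 2 were covered. The 891 bp peak lay over the TSS of DMTN-201, and the 2176 bp peak (rank 118) lay over the group from 22059206 to 22059348 and held the composite of the gene. The canonical TSS at 22056814 was not covered and lay 160 bp from the edge of a peak. The remaining peaks were 268 to 476 bp.

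Inside the 8 genes the first intron of the longest transcript held most peaks. On the longest basic transcript, the midpoint lay in an intron for 27 of the 47 peaks, and in 26 of these it was intron 1, which made up 51.4% of the intron length of the 8 genes. The exception was the 307 bp peak in intron 3 of SLC4A1. A further 13 lay upstream, 3 downstream, all at SLC4A1, 2 in coding exons and 2 in untranslated exon sequence. On the canonical transcript, 21 lay upstream and 19 in introns, so the order of these classes depends on the transcript. The share of intron length taken by intron 1 ranged from 20.3% at EPB42 to 85.9% at GYPC. ANK1 and DMTN gave 7 and 5 of the 26. There, intron 1 of the longest transcript contains other annotated TSS groups, so peaks over these were counted as intronic. No intron 1 share was computed for all peaks or all protein-coding genes, so the count describes these 8 genes only.

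To compare motif content, the 200 bp around each midpoint were searched on both strands. The GATA motif was found in 19 of the 47 peaks (40.4%, exact interval 26.4 to 55.7), compared with 47.1% of all peaks. The composite, which holds a GATA match by construction, was found in 7 (14.9%, 6.2 to 28.3), compared with 11.1%. The TAL1 E-box was found in 12 (25.5%, 13.9 to 40.3), compared with 33.8%. All 3 intervals included the share of all peaks, so no difference was detectable with this number of peaks. Each of the 8 genes had a peak with a GATA motif in this window, and 6 had one with a composite, all except GYPC and DMTN.

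The KLF motif, the kind of site bound by KLF1 of red cells, was found in 5 of the 47 (10.6%, 3.55 to 23.1), compared with 13.6% of all peaks. The RUNX motif (TGTGGT or TGCGGT) was found in 6 (12.8%, 4.83 to 25.7), compared with 20.5%. The AP-1 motif (TGACTCA or TGAGTCA) was found in 0 of 47 (exact interval 0 to 7.55%, where a limit of 3 counts gives 6.38%), compared with 9.48% of all peaks. Over whole peaks the AP-1 motif was found in 8 of the 47 (17%), compared with 19.2% of all. The E-box and KLF comparisons turned direction over whole peaks. The E-box was found in 72.3% of the 47 (exact interval 57.4 to 84.4) and 60% of all peaks. The KLF motif was found in 38.3% (24.5 to 53.6) and 30.1%. Both intervals included the share of all peaks, so no difference was detectable. Longer peaks also have more room for a match, and 40.4% of the 47 were longer than the upper quartile of all peaks. The GATA motif stayed lower, at 61.7% and 71.4%, and so did the RUNX motif, at 34% and 43%. None of the 6 motifs was found in the central window of 14 of the 47, and the same held for 22.8% of all peaks. In 200 bp upstream of protein-coding TSS the composite was found in 0.699%, the GATA motif in 12.8%, the TAL1 E-box in 16.9%, the KLF motif in 16.8%, the RUNX motif in 12.4% and the AP-1 motif in 2.5%.

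Over whole peaks, all 8 genes had a composite. The 20 matches lay in 15 of the 47 peaks (31.9%, exact interval 19.1 to 47.1), compared with 22.4% of all peaks. Longer peaks have more room for a match: the 15 peaks with one had a median length of 969 bp, and the 32 without had 429 bp. Spacing was 8 bases in 15 matches and 7 bases in 5. Per kb of sequence, the composite occurred 0.507 times in the peaks at the 8 genes and 0.0568 times in the rest of their windows. The ratio was 8.93, with the higher density in the peaks at 8 of 8 genes. At ANK1 and at DMTN this rested on 1 match in the peaks, and at SPTB, EPB42 and GYPC on 2, so the count over genes is a weak measure. In all peaks of the library the density was 0.432 per kb. The GATA motif alone had a ratio of 1.08 (1.85 and 1.71 per kb), higher in the peaks at 6 of 8 genes. The E-box had a ratio of 1.72, the KLF motif 2.33, the AP-1 motif 1.55 and the RUNX motif 0.857. The ratio for the composite was thus the highest of the 6 searched motifs. In all peaks of the library, the GATA (2.64 per kb), RUNX (1.13) and AP-1 (0.395) motifs were denser than in the peaks at the 8 genes (1.85, 0.787 and 0.254). The E-box (1.94 per kb) and the KLF motif (0.757) were less dense than there (2.28 and 1.04). GC content differs between these sequences and was not matched. The median over the centres of the 47 peaks was 55.5%, compared with 51.5% for all peaks.

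**Figure D4:**
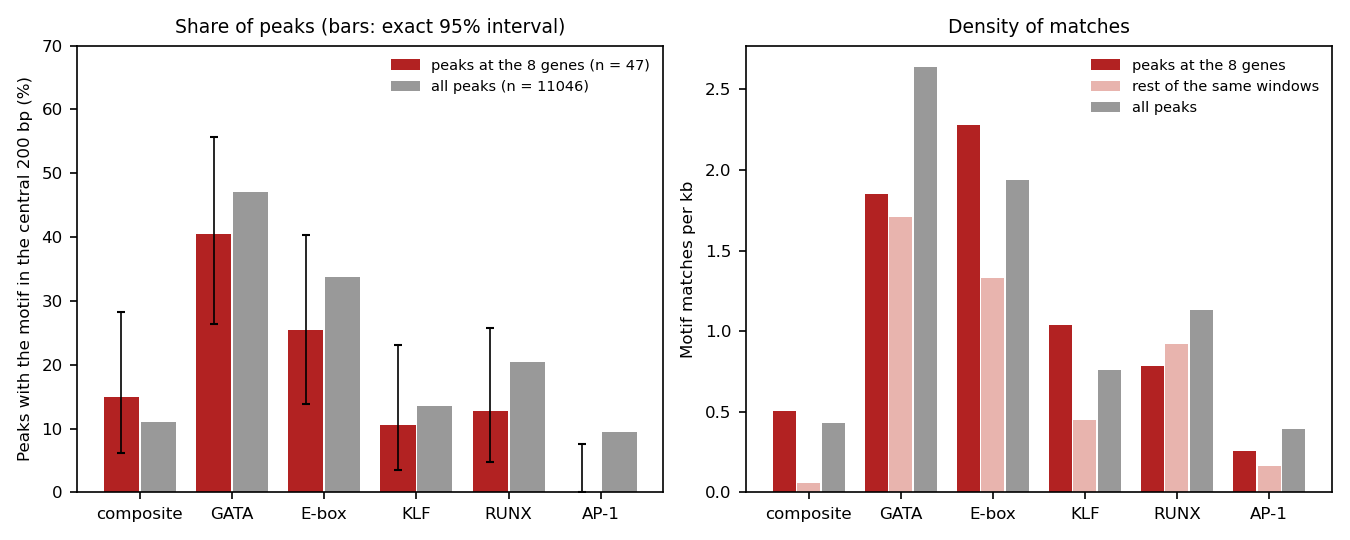
Left, percent of peaks with each of the 6 motifs in the 200 bp around the midpoint, for the 47 peaks at the 8 genes with exact 95% intervals and for all 11046 peaks (grey); right, motif matches per kb in those peaks, in the rest of the same windows and in all peaks. The intervals of GATA, composite, E-box, KLF and RUNX include the value of all peaks, and AP-1 was found in 0 of 47, while the composite was denser in the peaks (0.507 per kb) than in the rest of the windows (0.0568).

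The 200 bp upstream of the 9 TSS under a peak held the GATA motif in 6 cases, the KLF motif in 4, a composite in 3 (SPTB, EPB42 and RHAG), the E-box in 2, and the RUNX and AP-1 motifs in 1 each. Upstream of the canonical TSS of all protein-coding genes the shares were, in that order, 12.8%, 16.8%, 0.699%, 16.9%, 12.4% and 2.5%. The 9 were chosen for lying under a peak. They were not canonical at EPB41 and DMTN, and DMTN entered with 2. These values are therefore not like for like. A match of letters is a description and does not show that a factor was bound.

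To see how far the pattern held in the rest of the red cell membrane, a list of 24 other membrane genes was placed in the same way. Of these, 22 (91.7%, exact interval 73 to 99) had a peak, compared with 25.1% of protein-coding genes. A peak over a TSS was found at 12 of the 24, compared with 3.65% of protein-coding genes. The 24 genes had 82 peaks, with a median of 2.5 per gene. Those with at least 3 peaks included the glucose transporter SLC2A1 (13), the Rh antigens RHD (10) and RHCE (6), the potassium channel KCNN4 (6), the glycophorin GYPB (5), the calcium pump ATP2B4 (5), MPP1 and the mechanosensitive channel PIEZO1 (4 each), and ADD1, ACTB and STOM (3 each). ADD3 and ACKR1 had none. The central sequence was repeated in hg38 for 9 of the 10 peaks of RHD, 4 of the 6 of RHCE and 5 of the 5 of GYPB, which have near-identical copies, so their peaks are uncertain. A composite was found in the centre of 3 of the 82 peaks (3.66%), compared with 11.1% of all peaks. A GATA motif was found in 31 (37.8%), compared with 47.1%. Over whole peaks, 10 of the 82 (12.2%) had a composite, compared with 22.4% of all peaks.

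Genes related in sequence to the 8 that are used mainly outside red cells gave a further view. Of 15 such paralogs, 8 (53.3%, exact interval 26.6 to 78.7) had a peak, compared with 25.1% of protein-coding genes. The 15 genes had 21 peaks, with a median of 1 per gene. A peak over a TSS was found at 2, compared with 3.65% of protein-coding genes. For 1 of these 2 peaks, at SPTBN4, the TSS of another gene was nearer to the midpoint. SPTBN1 had 6 peaks, EPB41L2 had 4 and SPTBN4 had 3. Those without a peak included SLC4A3, ANK2, SPTBN5, EPB41L3, RHBG and RHCG. A composite was found in the centre of 0 of the 21 peaks, compared with 11.1% of all peaks. The exact upper bound was 16.1%, where a limit of 3 counts gives 14.3%. A GATA motif was found in 9 (42.9%), compared with 47.1%. Over whole peaks, 4 of the 21 (19%) had a composite, compared with 22.4% of all peaks.

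Of 10 genes typical of granulocyte precursors, the lineage of NB4, 7 had a peak in the same window, compared with 25.1% of protein-coding genes. CEBPE had 8, where 1.94% of protein-coding genes had at least 5. CSF3R had 3, and AZU1, CD33, ELANE, PRTN3 and SPI1 had 1 each. CEBPA, CTSG and MPO had none. Peaks do not measure expression, so this is no check of the identity of the cells. Between 10 and 25 kb from the gene bodies, 7 further peaks lay just outside the window, the nearest a 978 bp peak 10509 bp upstream of GYPC.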

How the data were processed

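The 2 CUT&Tag libraries of NB4 (LDB1 antibody; IgG) were aligned by the authors to hg38 with Bowtie2 2.4.4. MACS3 3.0 in paired-end mode gave the peaks. Use of the IgG library as control and removal of duplicates or problem regions are not given in the sources used here. Without a control a list can hold more open or repeated sequence. For each LDB1 peak the authors deposited its coordinates and its length, without height or summit, so the midpoint and the length were used instead.

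Peaks were assigned by an overlap of at least 1 base with GENCODE v44 bodies extended by 10 kb. Shares were given exact binomial intervals and the median an order-statistic interval (Python 3.11.15, pandas 2.3.3, SciPy 1.17.1, pysam 0.24.0). Copies of the central 31 bases were counted in hg38. The counting was tested on simulated data. No test between groups was possible with 1 library each. All 8 genes are named, as are genes of the other lists with at least 3 peaks or none. Some genes and sequences that this would name are not reported here. The genes and lists were chosen with earlier results of these data known, and the granulocyte list was added later. The alternatives were other windows, peak subsets and motif windows.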

Additional observations from a re-analysis of the deposited data

How the results depend on the processing

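Of 72 alternative values for 10 results, 63 moved by less than their interval or by under 1.5 times. All 8 genes kept a peak in every alternative. Using the longer peaks only (those of at least the median length), in place of a stricter q-value, gave 27 peaks with a median length of 891 bp, and merging peaks under 1 kb apart gave 30. A TSS window of 1000 bp gave a share near a TSS of 29.8%, beside 19.4% of all peaks, which include peaks far from any gene. The GATA share was 23.4% in 100 bp and 61.7% over whole peaks (71.4% of all peaks). Over whole peaks the composite share was 31.9% (22.4% of all peaks), the E-box share 72.3% (60%) and the KLF share 38.3% (30.1%). The latter pair stood above all peaks there and below them in 200 bp, with exact intervals that included the share of all peaks. In each case fewer peaks or shorter or longer sequence were counted by construction. No paired analysis was possible because there was only 1 library in either group. Read depth and peak height are unknown, so weak and strong peaks could not be separated, and the counts hold for this library only.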
